A study of Mus musculus with 8 samples.

Results

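The keratins, the intermediate filament proteins of epithelial cells, were read from RNA of posterior palatal shelves, the outgrowths that fuse into the roof of the mouth. Members were the protein-coding rows of the table with a symbol made of Krt, a number and at most 1 letter, and 54 of 55536 genes met this. The mutant group held 4 libraries from Yapfl/fl;Tazfl/fl;Col2Cre embryos, and the control group 4 libraries from Yapfl/fl;Tazfl/fl embryos, so that both groups carried floxed alleles of Yap and Taz. Right and left shelves were dissected at E14.5, before elevation, with epithelium and mesenchyme together. Col2Cre is a Cre recombinase named for Col2a1, a gene of cartilage collagen, and the labels do not say in which cells of the shelf it had acted. Nor do they give the strain, or say whether a library came from 1 embryo or several, so the p-values here rest on the spread between libraries, which may be technical. Yapfl/fl;Tazfl/fl;Col2Cre embryos are called mutants and Yapfl/fl;Tazfl/fl embryos controls in what follows.

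Keratins work as obligate pairs, in which an acidic type I protein assembles with a basic or neutral type II protein into filaments that attach to desmosomes and hemidesmosomes. Which keratins a cell makes follows its kind: Krt5 with Krt14 and Krt15 in the basal layer of stratified epithelium, Krt8 with Krt18 and Krt19 in simple and embryonic epithelium and periderm, Krt1 with Krt10 above the basal layer of skin, Krt4 with Krt13 above the basal layer of mucosa, and a large set in hair. In mesenchyme the main intermediate filament protein is vimentin instead. Of the members 28 were of type I and 26 of type II. Those on chromosome 11 numbered 27, all of type I, between positions 99232761 and 100269871, and the 27 on chromosome 15 lay between 101349571 and 102032026. Krt18, of type I, stands on chromosome 15 beside its partner Krt8, with 23874 bases between the ends of the genes. No source used here names the build of the table, and 35 of the 54 members had the same start and end in the GENCODE M21 annotation of GRCm38. In the deposited coordinates, Krt5 (ENSMUSG00000061527) lies at 101707070-101712891 on chromosome 15, Krt7 (ENSMUSG00000023039) lies at 101411043-101430313 on chromosome 15, Krt8 (ENSMUSG00000049382) lies at 101996711-102004342 on chromosome 15, Krt18 (ENSMUSG00000023043) lies at 102028216-102032026 on chromosome 15. On the same basis, Krt15 (ENSMUSG00000054146) lies at 100131758-100135928 on chromosome 11, Krt19 (ENSMUSG00000020911) lies at 100140810-100148665 on chromosome 11, Krt14 (ENSMUSG00000045545) lies at 100203162-100207548 on chromosome 11, Krt17 (ENSMUSG00000035557) lies at 100256217-100261029 on chromosome 11.

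The promoter windows of the basal gene Krt5 and of the neighbours Krt8 and Krt18 are shown because these genes stand for the basal and the simple keratins in the results that follow. Each runs from 250 bases before to 50 bases after the RefSeq start on GRCm38.p6, 5′ to 3′ along the gene, with capitals where TATAAA (the TATA box core), GGAATG (the core bound by TEAD factors, the DNA-binding partners of YAP and TAZ), GCCNNNGGC (AP-2) or GGGCGG (a GC box) was found on either strand. Windows on chromosome 15 were chr15:101712856-101713155 on the minus strand for Krt5, chr15:102004293-102004592 on the minus strand for Krt8 and chr15:102027966-102028265 on the plus strand for Krt18.
Krt5: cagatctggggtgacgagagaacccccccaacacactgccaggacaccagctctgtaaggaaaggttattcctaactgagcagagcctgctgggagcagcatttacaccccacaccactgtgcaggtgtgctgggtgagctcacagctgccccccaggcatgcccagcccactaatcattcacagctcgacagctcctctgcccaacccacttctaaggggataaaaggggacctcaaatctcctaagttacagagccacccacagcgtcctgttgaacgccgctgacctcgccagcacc
Krt8: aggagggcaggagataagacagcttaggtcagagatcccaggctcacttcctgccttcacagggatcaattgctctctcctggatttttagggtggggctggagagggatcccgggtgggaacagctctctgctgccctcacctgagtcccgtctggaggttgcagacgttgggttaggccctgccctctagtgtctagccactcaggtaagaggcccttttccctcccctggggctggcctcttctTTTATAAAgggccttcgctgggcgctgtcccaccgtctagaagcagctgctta
Krt18: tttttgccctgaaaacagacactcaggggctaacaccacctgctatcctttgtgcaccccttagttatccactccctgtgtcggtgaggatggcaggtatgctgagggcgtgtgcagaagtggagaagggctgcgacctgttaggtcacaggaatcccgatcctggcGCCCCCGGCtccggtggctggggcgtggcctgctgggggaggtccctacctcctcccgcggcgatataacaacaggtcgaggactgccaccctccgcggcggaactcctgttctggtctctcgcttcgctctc
Krt8 held TATAAA on both strands in overlapping positions at its annotated start, Krt18 held GCCNNNGGC, and none of the 4 motifs was found in the window of Krt5. RefSeq gave 37 different windows for 36 of the 54 keratins. TATAAA was in 19 of the 37 keratin windows (51.4%), against 13.6% of all 32544 windows of the same length. GGAATG was in 3 (8.11%), against 14.6% of all windows. GCCNNNGGC was in 7 (18.9%), against 16.7%, and GGGCGG in 2 (5.41%), against 35.9%. A match is a description of the letters in the window.

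Before the keratins, the targeted genes were read in every library. Yap1 had 8745, 8229, 8221 and 8656 normalised counts in mutant replicates 1 to 4, against 9095, 9459, 10086 and 9799.8 in control replicates 1 to 4, and the highest mutant value was under the lowest control value. Wwtr1, which encodes TAZ, had 4574, 3873, 3649.9 and 3931 normalised counts in mutant replicates 1 to 4, against 4835, 4928, 5305 and 4449 in control replicates 1 to 4, with mutant replicate 1 inside the control range. Both missed the limma threshold over all genes (limma adjusted p = 0.751 for each). The counts cover whole genes and the floxed exons are not given in the labels, so they check the genotypes in part only. Mutant replicate 2 stood apart from the other libraries. Its count of Xist, an RNA of the inactive X chromosome of female cells, was 840.4, against 0 to 17.4 in the other libraries. Its epithelial markers were the highest of the 8. The log2 differences that moved most without this library are given in both forms. The labels do not give the sex of the embryos, and the part of sex in the keratin values was not tested. The ribosomal RNA locus Gm42418 took 1.56% to 2.48% of the counts in mutants and 4.22% to 5.66% in controls, and its part in the keratin values was not tested. Recovered depth was 29025089 to 32437977 reads per library.

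Basal and simple epithelial keratins and Krt17 made up nearly all keratin message of the shelves in mutants and in controls, and hair shaft keratins took at most 0.183% of the keratin count per kb in a library. Of the 54 keratins 21 had at least 10 normalised counts in at least 4 of the 8 libraries and were tested, 14 of them with a mean of at least 100. Of the 33 others, 8 had no read in any library, where counting error alone allows up to 3 reads, or 2.84 to 3.19 normalised counts, in a library, and 25 had a few, at most 20.3 normalised counts in a library. All 3 basal and all 6 simple epithelial keratins were among the tested. Of the 15 hair shaft keratins 2 were tested, and of the 9 inner root sheath and companion layer keratins 1, Krt75. Krt15, Krt17, Krt5 and Krt14 together made up 77.6% to 81.6% of the summed keratin count in mutants and 77.1% to 80.4% in controls.

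Levels between genes were compared per kb of the longest coding transcript tagged as consensus coding sequence (CCDS), which 53 of the 54 members had. Krt17, a keratin of appendages, periderm and stressed epithelium, averaged 5455 normalised counts per kb over the 8 libraries and Krt15 5348, and the order of these neighbours was held in 5 of 8 libraries only. Krt14 followed at 3565 and Krt5 at 3174, with Krt14 above Krt5 in 7 of 8 libraries. A step down came next, since Krt5 exceeded Krt19, at 1068 per kb, in all 8 libraries. Krt19 was above Krt18 (932 per kb) in 6 of 8 libraries, and Krt18 above Krt8 (732 per kb) in all 8. Krt7, a simple epithelial type II keratin, had 401 per kb, Krt6a 231, and Krt10 123. Krt4, Krt80, Krt1 and Krt75 lay between 43.1 and 82.5 per kb, and the order of Krt4 and Krt80 was held in 4 of 8 libraries. With the union of all annotated exons as the length, Krt18 came before Krt19, and Krt75 before Krt80 and Krt1, and the others of the 14 kept their order. The level of Krt7 depended on the length used, at 401 per kb by transcript and 233 by exon union.

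**Figure D1:**
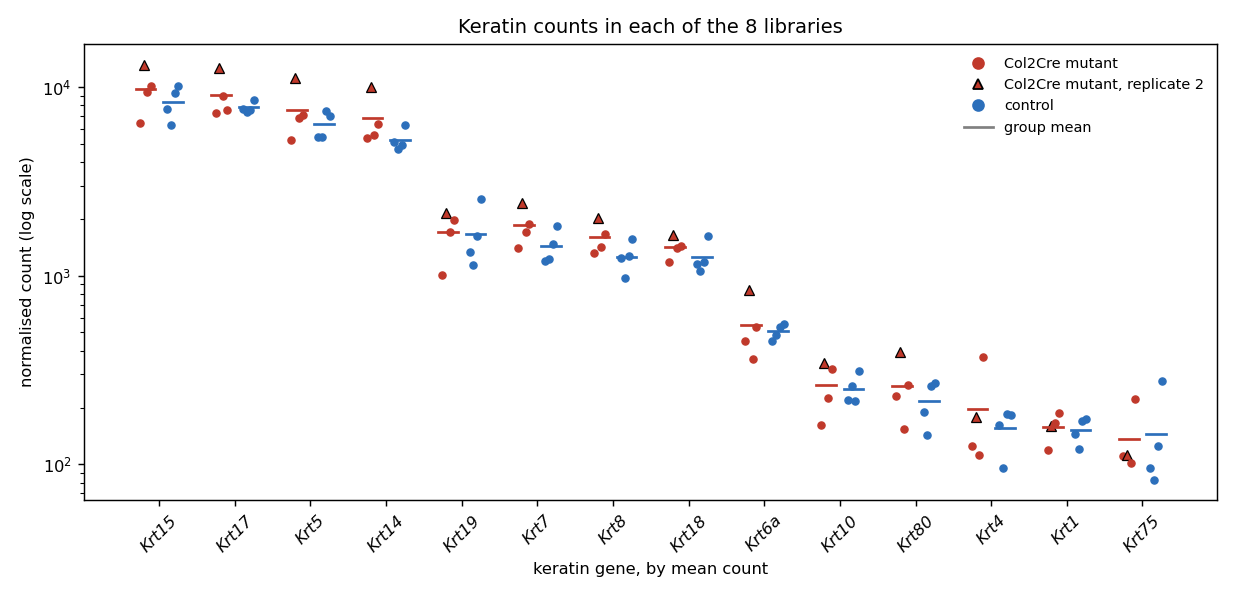
Normalised counts on a log scale of the 14 keratins with a mean of at least 100 in 4 mutant (left, red) and 4 control (right, blue) libraries, with lines for group means and triangles for mutant replicate 2. The groups overlap for all 14 genes, and mutant replicate 2 is the highest library for 10 of them.

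No keratin passed the comparison of mutants with controls. Of the 21 tested, 0 were called by limma on log2(normalised count + 1) with Benjamini-Hochberg adjustment over all 16647 genes, where 0.0240% of genes were called, and 0 by edgeR or DESeq2 on the recovered reads, which called 0.0300% of genes (edgeR) and 0.187% (DESeq2). DESeq2 gave an adjusted p for 16 of the 21 and none for Krt20, Krt24, Krt33b, Krt87 and Krt222. At an unadjusted p below 0.05, limma gave 1 of the 21 (Krt8), edgeR 3 (Krt7, Krt8 and Krt14) and DESeq2 2 (Krt7 and Krt8), against 6.57% of all genes in limma, 6.24% in edgeR and 6.65% in DESeq2. The 1 was among the higher ones, as were 2.78% of all genes, and 0 were among the lower ones, as were 3.79% of all genes. In mean log2 level 17 of the 21 were higher in mutants, as were 8317 of all 16647 tested genes. The groups overlapped for all 21, while 1.86% of all genes had every mutant library above every control library and 1.91% had every mutant library below. The median log2 difference of the 21 was 0.19, and 0.04 without mutant replicate 2, against 0.00 over all tested genes. Of the 14 keratins with a mean of at least 100, all 14 were higher in mean log2 level, and 11 without mutant replicate 2. Other libraries mattered as well: of the 21, 14 were higher without mutant replicate 2 and 12 without mutant replicate 4. The count was 12 to 18 as each library was left out. These tissues are mixtures, so a change in the number of cells of a type and a change in RNA per cell cannot be told apart.

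The basal keratins Krt5, Krt14 and Krt15 were abundant in every library, and none passed the test between mutants and controls. Krt5, the type II keratin of basal cells, had 5238, 11170.0, 6847 and 7122 normalised counts in mutant replicates 1 to 4, against 5456, 5454, 7449.5 and 7053 in control replicates 1 to 4. Krt14, its type I partner, had 5378, 10066, 5588 and 6379 normalised counts in mutant replicates 1 to 4, against 5092, 4676, 4949 and 6306 in control replicates 1 to 4. For both genes mutant replicate 2 was far above the other 7 libraries, which mixed. The log2 difference 0.34 (SE 0.169, limma adjusted p = 0.767) of Krt14 was 0.14 without that library, and the log2 difference 0.22 (SE 0.188, limma adjusted p = 0.858) of Krt5 was 0.01. Krt15, a type I keratin of basal cells and of progenitor-rich epithelium, had 6482, 13157, 9474 and 10208 normalised counts in mutant replicates 1 to 4, against 7657, 6263, 9316 and 10177 in control replicates 1 to 4. Its log2 difference 0.21 (SE 0.193, limma adjusted p = 0.863) was 0.06 without mutant replicate 2, and mutant replicate 1 and control replicate 2 held its low values.

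Among the keratins of appendages and stressed epithelium, Krt17 was as abundant as the basal ones and Krt6a was an order lower. Krt17 had 7337, 12620.0, 8961 and 7556 normalised counts in mutant replicates 1 to 4, against 7689, 7368, 7604 and 8554 in control replicates 1 to 4. Controls were tight, all within 7368 to 8554, and 3 of the 4 mutant libraries were in or near that range, so that the log2 difference 0.19 (SE 0.140, limma adjusted p = 0.818) went to 0.02 without mutant replicate 2. Krt6a, a type II partner of Krt16 and Krt17, had 451, 840.4, 363 and 534 normalised counts in mutant replicates 1 to 4, against 450.4, 486, 536 and 556 in control replicates 1 to 4. Its log2 difference 0.04 (SE 0.211, limma adjusted p = 0.980) turned to -0.19 without mutant replicate 2, with mutant replicate 3 as the lowest library. Krt16 was below the filter, at 0 to 15.4 normalised counts, and Krt6b had reads in 1 library only, at 1.0. Krt6a and Krt6b, and Krt14, Krt16 and Krt17, are close in sequence, and how the counting divided reads between them is not known, so their separate levels are uncertain.

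The smallest p-values of the tested keratins were those of the simple epithelial type II genes Krt8 and Krt7. Krt8, the type II keratin of simple epithelium and periderm, had 1323, 2019, 1426 and 1661 normalised counts in mutant replicates 1 to 4, against 1242, 973, 1268 and 1561 in control replicates 1 to 4. Its mean was 1607 ± 309 in mutants and 1261 ± 240.4 in controls (SD, n = 4 each), a log2 difference 0.35 (SE 0.151, limma adjusted p = 0.754), and 0.23 without mutant replicate 2. Control replicate 4 lay among the mutants and control replicate 2 below all others, and without control replicate 2 the difference was also 0.23. Krt18, its type I partner, had 1182, 1651, 1406 and 1440.3 normalised counts in mutant replicates 1 to 4, against 1158, 1064, 1184 and 1632 in control replicates 1 to 4. Only mutant replicate 2 exceeded control replicate 4 here, and the log2 difference 0.18 (SE 0.135, limma adjusted p = 0.820) was 0.11 without mutant replicate 2. Krt7 had 1395, 2444, 1697 and 1885 normalised counts in mutant replicates 1 to 4, against 1193, 1228, 1481 and 1825 in control replicates 1 to 4. Its mean was 1855 ± 441 in mutants and 1431 ± 292 in controls (SD, n = 4 each), a log2 difference 0.37 (SE 0.168, limma adjusted p = 0.754), and 0.22 without mutant replicate 2. Krt19, the type I keratin that lacks most of the tail domain, had 1010.3, 2158, 1696 and 1970.3 normalised counts in mutant replicates 1 to 4, against 1332, 1146, 1616 and 2539 in control replicates 1 to 4. It spread widely in both groups, with its lowest value in mutant replicate 1 and its highest in control replicate 4, and its log2 difference 0.05 (SE 0.256, limma adjusted p = 0.980) turned to -0.08 without mutant replicate 2.

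**Figure D2:**
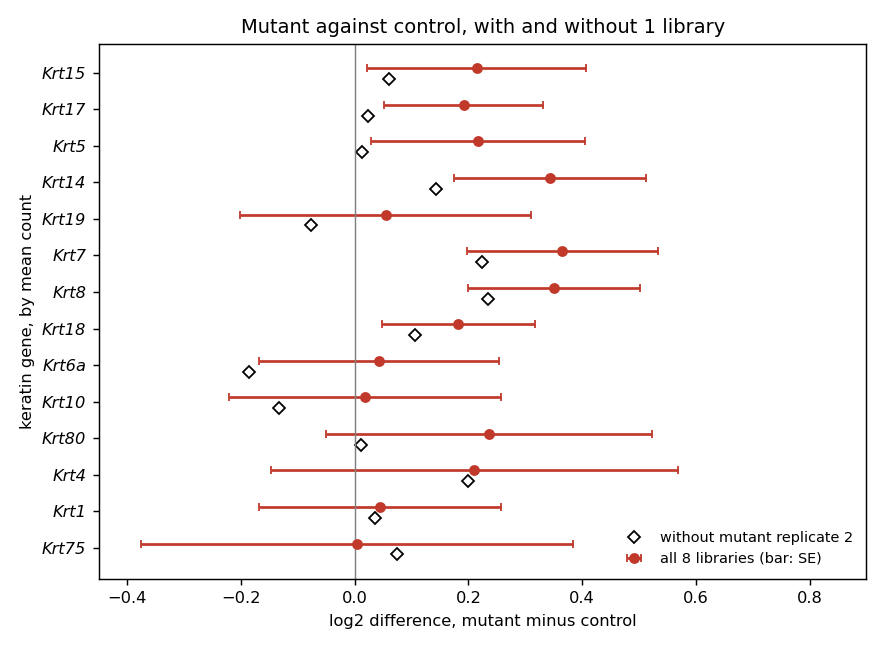
The log2 difference between mutants and controls of the 14 keratins (filled circles, with SE) from all 8 libraries, and without mutant replicate 2 (open diamonds). All 14 points lie at or above 0 with all libraries, and those of Krt19, Krt6a and Krt10 lie below 0 without mutant replicate 2.

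The keratins of suprabasal layers were present at low levels. Krt10, the type I keratin of spinous cells, had 162, 346, 224 and 322 normalised counts in mutant replicates 1 to 4, against 220.4, 259.7, 216 and 311 in control replicates 1 to 4. Krt1, its partner, had 119.6, 159, 166 and 187 normalised counts in mutant replicates 1 to 4, against 145, 121, 170.3 and 175 in control replicates 1 to 4. For neither did the groups separate, with log2 differences of 0.02 (SE 0.240) for Krt10 and 0.04 (SE 0.213) for Krt1. Without mutant replicate 2 that of Krt10 turned to -0.13. The mucosal type II keratin Krt4 had 125, 179, 112 and 369 normalised counts in mutant replicates 1 to 4, against 161, 95.7, 185 and 182 in control replicates 1 to 4, with mutant replicate 4 far above the other 7 libraries. Its log2 difference 0.21 (SE 0.358, limma adjusted p = 0.936) turned to -0.15 without mutant replicate 4. Krt80, a type II keratin of many epithelia, had 231, 394, 153 and 264 normalised counts in mutant replicates 1 to 4, against 189, 144, 262 and 269 in control replicates 1 to 4. Its log2 difference 0.24 (SE 0.287, limma adjusted p = 0.901) was 0.01 without mutant replicate 2. Gm35853, a transcript on the opposite strand that overlaps Krt80, had a mean of 5.95 in mutants and 20.9 in controls, and reads of such a pair cannot be told apart without strand. Krt75, a keratin of the companion layer of hair, had 111, 112, 101 and 223 normalised counts in mutant replicates 1 to 4, against 95.8, 83, 125 and 277 in control replicates 1 to 4. Mutant replicate 4 and control replicate 4 were its high libraries and the other 6 lay between 83.0 and 125.2, so that the log2 difference 0.00 (SE 0.380, limma adjusted p = 0.999) carried no direction.

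Among the 7 tested keratins with a lower mean, which were Krt13, Krt23, Krt33b, Krt20, Krt222, Krt24 and Krt87, values ran from 0 to 98.2 normalised counts in a library. Their log2 differences ran from -1.36 for Krt33b to 0.99 for Krt87 with SE from 0.517 to 1.15, and limma adjusted p from 0.813 to 0.944. Of the 54 members, 1 had groups that did not overlap, Krt31, a hair shaft keratin below the filter that was picked out after its values were seen. Over all tested genes 1.86% had groups that did not overlap with mutants above, and 1.91% with mutants below. The 54 members include 33 below the filter, Krt31 among them, so their count is not on the same basis. Krt31 had 11.7, 15.1, 20.3 and 9.1 normalised counts in mutant replicates 1 to 4, against 4.3, 0, 3.1 and 7.9 in control replicates 1 to 4. It stood below the filter of the test, so no p is given.

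The sum over all keratins varied 1.95-fold between libraries. It was 30792, 57589.5, 38391 and 40299 normalised counts in mutant replicates 1 to 4, against 32203, 29556, 36592 and 41645 in control replicates 1 to 4. The mutant mean was 1.19 times the control mean, and 1.04 times without mutant replicate 2. The shares of the 3 most abundant groups varied less than the sum. Per kb, basal keratins took 54.4% to 58.5% in mutants and 53.9% to 58.1% in controls, and the stress and appendage keratins 22.9% to 28.6% in mutants and 24.8% to 29.99% in controls. Simple epithelial keratins took 13.03% to 16.1% in mutants and 13.9% to 17.3% in controls. Of the low groups 3 varied more than the sum. Mucosal suprabasal keratins took 0.33% to 0.89% in mutants and 0.443% to 0.668% in controls. Inner root sheath and companion layer keratins took 0.111% to 0.325% in mutants and 0.153% to 0.373% in controls. Hair shaft keratins took 0.0456% to 0.183% in mutants and 0.0692% to 0.15% in controls. The sum per kb of type II keratins was 0.275 to 0.304 of that of type I keratins in mutants and 0.269 to 0.321 in controls, so type I message was in excess in every library.

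**Figure D3:**
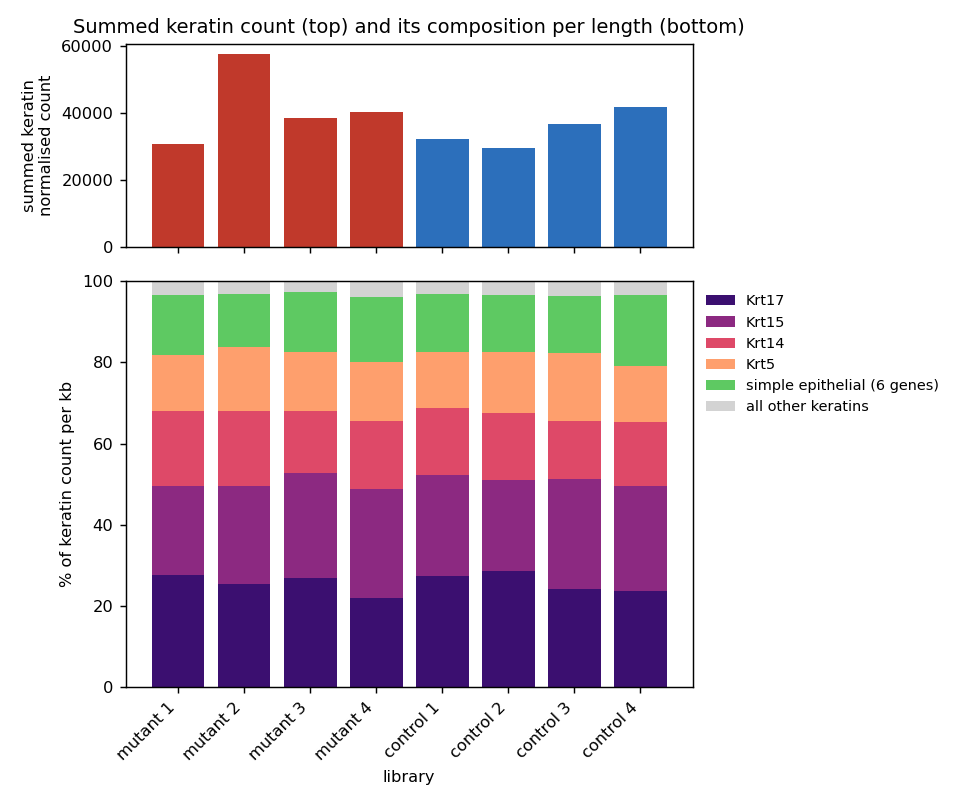
The summed keratin normalised count in each library (top) and the percent of the keratin count per kb taken by Krt17, Krt15, Krt14, Krt5, the 6 simple epithelial keratins and all others (bottom), with 4 mutant libraries left of 4 control libraries. The sum is highest in mutant replicate 2, at 57590, while the basal share stays between 53.9% and 58.5% in the 8 libraries.

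Ratios of partner keratins were taken within a library, where the size factor cancels. The log2 ratio of Krt8 to Krt18 per kb was -0.28, -0.16, -0.43 and -0.24 in mutant replicates 1 to 4, against -0.34, -0.57, -0.35 and -0.51 in control replicates 1 to 4. The groups overlapped, with a mean difference of 0.17, which ranged from 0.12 to 0.22 as each library was left out. For Krt5 over Krt14 the log2 ratio was -0.41, -0.22, -0.08 and -0.21 in mutant replicates 1 to 4, against -0.27, -0.15, 0.22 and -0.21 in control replicates 1 to 4, and control replicate 3 was the library in which Krt5 exceeded Krt14. For Krt7 over Krt19 it was -0.91, -1.20, -1.38 and -1.44 in mutant replicates 1 to 4, against -1.54, -1.28, -1.50 and -1.85 in control replicates 1 to 4, again with overlap. Control replicates 1 to 4 gave close ratios of Krt4 to Krt13, the mucosal pair, at 1.35, 1.12, 1.10 and 1.31, while mutant replicates 1 to 4 gave -0.01, 0.84, 2.49 and 3.68. The SD of this ratio was 1.66 in mutants and 0.126 in controls (n = 4 each), and this spread was singled out after the values were seen and not tested. Krt13, the type I member, had 98.2, 77.6, 15.4 and 22.3 normalised counts in mutant replicates 1 to 4, against 49, 34.2, 66.7 and 57 in control replicates 1 to 4. Mutant replicates 3 and 4 held its lowest values and mutant replicates 1 and 2 its highest.

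**Figure D4:**
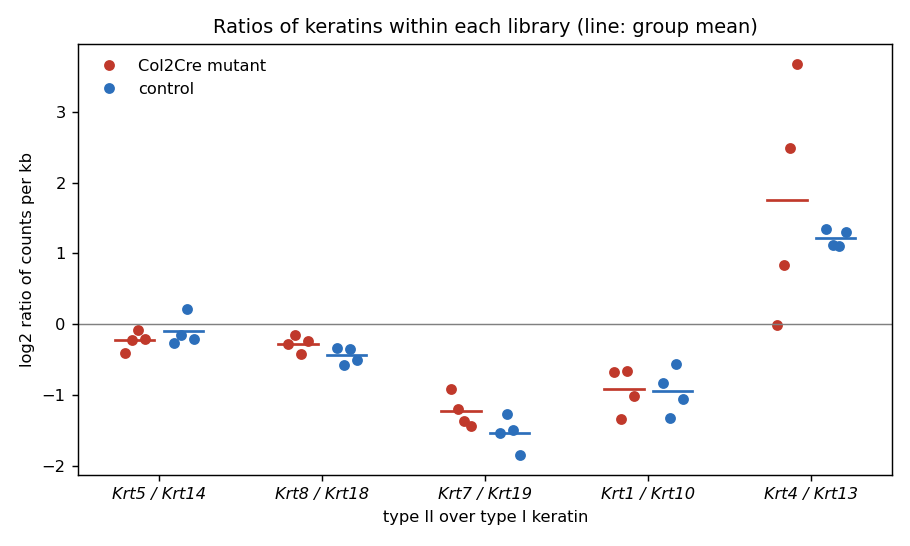
The log2 ratio of counts per kb of type II over type I keratins in each library, with mutants (red) left of controls (blue) and lines for group means. Krt4 over Krt13 spreads from -0.01 to 3.68 in mutants and from 1.10 to 1.35 in controls, and the groups overlap for every ratio shown.

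Epithelial markers other than keratins also had their highest level in mutant replicate 2 and their lowest in control replicate 2. All 16 of 16 markers of epithelium were tested and had higher mean log2 levels in mutants, as had 8317 of all 16647 tested genes. Of the 16, 0 were called by limma and 3 had an unadjusted limma p below 0.05, against 6.57% of all genes. Their median log2 difference was 0.23, or 0.11 without mutant replicate 2, where all 16 were still higher. The 16 were measured in the same libraries, so their directions are not independent. Their summed count ran from 21540 to 33710 in mutants and from 18410 to 25930 in controls, and none was at 0. Cdh1, E-cadherin, had 4790.2, 7786, 5124 and 5904 normalised counts in mutant replicates 1 to 4, against 4677, 4187, 4781 and 6105 in control replicates 1 to 4. Its log2 difference 0.24 (SE 0.145, limma adjusted p = 0.782) was 0.10 without mutant replicate 2. Epcam, an epithelial adhesion protein, had a log2 difference 0.17 (SE 0.140, limma adjusted p = 0.836), and Trp63, the master regulator of stratified epithelium, a log2 difference 0.19 (SE 0.138, limma adjusted p = 0.815). Without mutant replicate 2 these were 0.06 for Epcam and 0.07 for Trp63. Esrp2, an epithelial splicing factor, and the claudin Cldn7 had the smallest p-values of the 16, with log2 differences of 0.55 (SE 0.187) and 0.63 (SE 0.251). That of Esrp2 was 0.37 without mutant replicate 2, and that of Cldn7 0.35 without control replicate 2. Relative to the control mean, the 16 markers averaged log2 levels of 0.03, 0.65, 0.15 and 0.32 in mutant replicates 1 to 4, against -0.03, -0.32, 0.09 and 0.26 in control replicates 1 to 4. Mesenchymal markers averaged -0.09, -0.16, -0.14 and 0.01 in mutant replicates 1 to 4, against -0.09, 0.06, 0.01 and 0.02 in control replicates 1 to 4. Of these 8 markers 4 had higher means in mutants, 0 were called, and 1 had an unadjusted limma p below 0.05. That was Col1a1, with a log2 difference -0.36 (SE 0.136, limma adjusted p = 0.754), and -0.23 without mutant replicate 2. Krt8, singled out after its values were seen, stayed near the epithelial level: after subtraction of that level its values were 0.06, 0.05, 0.04 and 0.10 in mutants, against 0.02, -0.03, -0.06 and 0.07 in controls. This brought the SD of its log2 level to 0.025 in mutants and 0.057 in controls, where it was 0.269 in mutants and 0.279 in controls before. The SD became smaller for 12 of 14 keratins in mutants and 11 of 14 in controls, and for 0 of 14 did the groups separate after the subtraction. The SD became larger for Krt1 and Krt75 in mutants. In controls it became larger for Krt17 (0.093 before, 0.170 after), Krt6a and Krt10. The mean difference between mutants and controls after the subtraction was above 0 for 3 of the 14, at 0.06 for Krt14, 0.08 for Krt7 and 0.06 for Krt8. It was below 0 for the other 11, down to -0.27 for Krt10 and -0.28 for Krt75. The level subtracted was the mean over the 16 markers, among them Cldn7 at 0.63 and Esrp2 at 0.55. Cdh1, Epcam and Trp63 lay lower, at 0.24, 0.17 and 0.19, so the sign of these differences depends on the markers chosen. The subtraction is a description only, and the part of epithelial content in the keratin values was not tested.

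**Figure D5:**
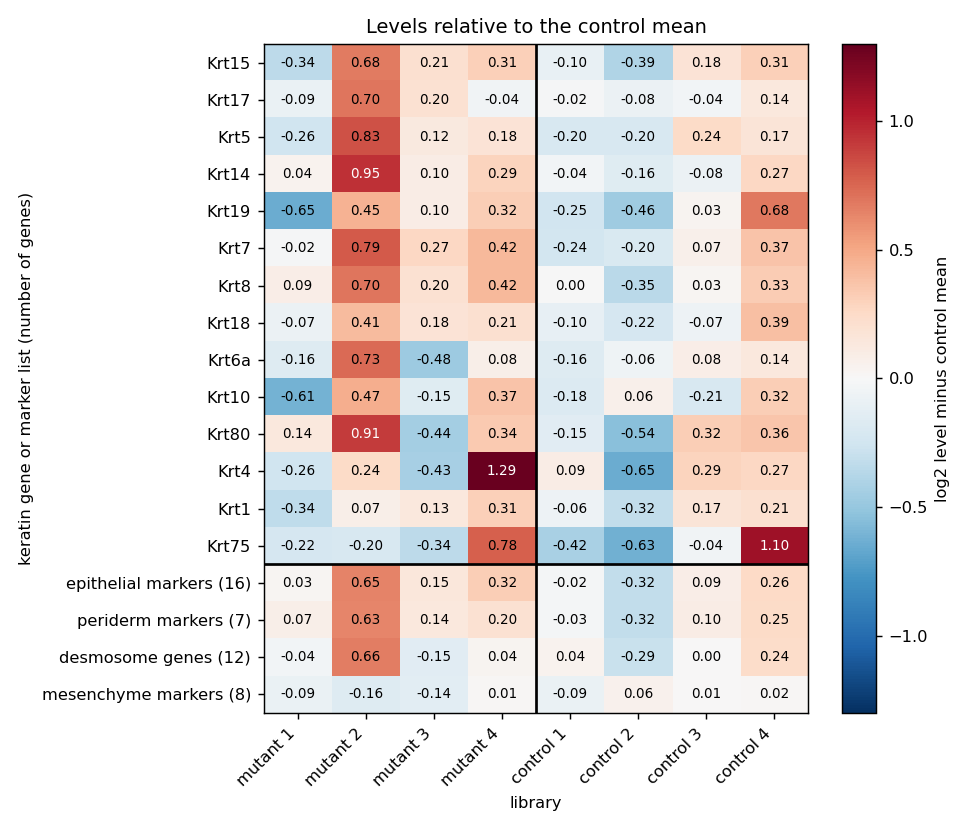
Log2 level minus the control mean of the 14 keratins and of 4 gene lists (mean over the number of tested genes in brackets) in each library, with mutants left of controls. Krt8 has 0.70 in mutant replicate 2 and -0.35 in control replicate 2, beside 0.65 and -0.32 for the epithelial markers, while Krt75 is highest in control replicate 4.

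Genes that anchor or control keratins had mostly higher means in mutants and none was called. Over all tested genes 8317 of 16647 were higher, and 6.57% had an unadjusted limma p below 0.05. Of 12 tested desmosome genes 11 had higher mean log2 levels in mutants, with a median of 0.13, and 3 without mutant replicate 2, with a median of -0.04; 0 were called by limma and 0 had an unadjusted p below 0.05. Perp, a desmosomal protein controlled by p63, had a log2 difference 0.28 (SE 0.171, limma adjusted p = 0.794), and 0.12 without mutant replicate 2. Among 8 tested hemidesmosome and cytolinker genes 7 were higher, or 4 without mutant replicate 2, with 1 at an unadjusted p below 0.05. That gene was Itgb4, the integrin subunit that plectin links to the keratin network. Itgb4 had 2624, 3705, 2406 and 2965 normalised counts in mutant replicates 1 to 4, against 2402, 1915, 2394 and 2510.1 in control replicates 1 to 4. Its log2 difference 0.33 (SE 0.126, limma adjusted p = 0.754) was 0.21 without mutant replicate 2. Plec, plectin itself, had a log2 difference -0.17 (SE 0.0895, limma adjusted p = 0.773), and -0.09 without control replicate 3. Of 17 factors of stratified epithelium 14 were higher, or 10 without mutant replicate 2, with 0 called and 2 at an unadjusted p below 0.05. Ovol2, a repressor of mesenchymal genes in epithelium, had 91.4, 141, 83 and 143 normalised counts in mutant replicates 1 to 4, against 39.4, 7.8, 39 and 99.2 in control replicates 1 to 4, a log2 difference 1.70 (SE 0.598, limma adjusted p = 0.754), and Klf4, which acts in barrier formation, a log2 difference -0.32 (SE 0.120, limma adjusted p = 0.754). Control replicate 4 lay among the mutants for Ovol2, whose difference was 1.04 without control replicate 2. That of Klf4 was -0.20 without mutant replicate 2. Klf4 had 5148, 3317, 4340 and 4633 normalised counts in mutant replicates 1 to 4. In control replicates 1 to 4 it had 5324, 5831, 5827 and 4638. It was lowest in mutant replicate 2, where the epithelial markers were highest, and which cells held its message was not tested.

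Markers of differentiated epithelium and of other cell types were counted in the same way. Of 16 cornified envelope genes 7 were tested, 4 higher and 3 lower in mutants, and Flg, Sprr1b, Sprr2a1 and Lce1a1 were at 0 in all libraries. Krtdap, a keratinocyte differentiation protein, had 32.1, 44.5, 61.7 and 42.5 normalised counts in mutant replicates 1 to 4, against 20.2, 9.8, 32.8 and 34.4 in control replicates 1 to 4. Its log2 difference 0.98 (SE 0.467, limma adjusted p = 0.758) did not pass, and was 0.62 without control replicate 2. All 7 of 7 periderm markers had higher means in mutants, or 6 without mutant replicate 2, 0 were called, and their summed count ran from 9089 to 12950 in mutants and from 8592 to 10340 in controls. Of 5 tested dental epithelium markers 3 were higher, and Amelx was at 0 in all libraries. Of 4 tested Merkel cell markers 2 were higher. Skeletal muscle markers were higher in 3 of 6 cases, and erythroid ones in 6 of 6, also without mutant replicate 2, with a median log2 difference of 0.35, or 0.14 without that library. The summed erythroid count ran from 15740 to 41690 in mutants and from 19100 to 23320 in controls. Of 15 other tested intermediate filament genes 7 were higher and 8 lower in mutants, and Vim, vimentin, had 39779.8, 30209, 35604 and 36586 normalised counts in mutant replicates 1 to 4, against 38573, 41103, 37163 and 35138 in control replicates 1 to 4. Vim had its lowest value in mutant replicate 2, the library with the most keratin, and a log2 difference -0.10 (SE 0.0831, limma adjusted p = 0.842), which was -0.03 without that library. In none of these lists was a gene called by limma. At an unadjusted limma p below 0.05 were 1 periderm gene, Ripk4, and 2 erythroid genes, Hba-a2 and Hba-a1. The other lists here had 0, against 6.57% of all genes. Ripk4 had a log2 difference 0.44 (SE 0.146, limma adjusted p = 0.754), and 0.31 without mutant replicate 2.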

How the data were processed

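RNA of posterior palatal shelves at E14.5 was sequenced in 4 mutant and 4 control libraries, grouped by the genotype label and numbered in accession order. STAR 2.7.2 and DESeq2, with no version, are named in the submitters' processing notes; the sources used here do not state the counting, its strand, the annotation or the build. The signal values are normalised counts made by the authors, gene reads divided by 1 size factor per library, per the column names and the values themselves. With 1 step per library, 100% of values of 50 to 5000 came out as whole reads within 0.06 reads. The deposited log2 values, variance-stabilised by the authors per the column names, were used in 1 alternative.

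Genes with at least 10 normalised counts in at least 4 of 8 libraries (16647) entered the two-sided limma test (3.58.1, R 4.3.3), run on log2(normalised count + 1) with genotype as its only term and a trend of variance on level, adjusted by Benjamini-Hochberg at 0.05. Tried instead were other pseudocounts (0.5, 8), filters (none, or a mean of 50 or more), 2 scalings, robust variances, the title number as a block, each library left out, the stabilised values, and edgeR 4.0.16 and DESeq2 1.42.0 on recovered reads. Their effect is given in the closing section. Simulated libraries with known changes were used to test the fit. The changes put in were larger than any difference of the 14 keratins with a mean of at least 100. They therefore do not tell whether differences of the keratins' size could be found.

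Every keratin past the filter was named, with a value per library for those with a mean of at least 100. Of each context list up to 4 genes with the smallest p could be named, and Cdh1, Epcam, Trp63, Yap1 and Wwtr1. Not every such gene is. The members and lists were chosen with earlier results of these data known. Lengths came from GENCODE M21 and promoters from RefSeq GRCm38.p6. Eppk1 was listed but not analysed here. Figures were drawn with matplotlib 3.10.9.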

Additional observations from a re-analysis of the deposited data

Results flagged for a closer look

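In groups of 4, a library was singled out where its gap to the nearest other library, divided by the range of the group, exceeded Dixon's critical value. This was met in 11 of 146 groups, where chance alone gives about 1 in 20. Among the keratins, Krt75 had 222.5 normalised counts in mutant replicate 4, against 101.3 to 111.7 in the other mutants. Krt15, Krt17, Krt5 and Krt14 took 77.1% of the keratin count in control replicate 4, against 80.1% to 80.4% in the other controls, and simple epithelial keratins took 17.3% of the count per kb there, against 13.9% to 14.3%. The 14 keratins with a mean of at least 100 took 99.2% of the keratin count in mutant replicate 1, against 99.5% to 99.6% in the other mutants.

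Of the other genes, Perp had 3283 normalised counts in control replicate 4, against 2248 to 2327 in the other controls, and Msx1 had 131.6 there, against 54.4 to 67.4. Cldn7 had 212.8 in control replicate 2, against 440.8 to 476.3, and Grhl3 had 423.7 there, against 604 to 634. Pdgfra had 18927 in control replicate 3, against 16528 to 16815, and Hba-a2 had 1685.6 there, against 944.7 to 1058.2. Plec had 11766 in mutant replicate 1, against 9741 to 10056 in the other mutants.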

How the results depend on the processing

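No keratin that had an adjusted p was called under any of the 19 alternatives. Genes called over all tested numbered 4, with 0 under robust variances (1061 at an unadjusted p below 0.05 in limma), 28 with DESeq2 and 5 with edgeR. They ranged from 0 to 11 as each library was left out: 0 in limma without mutant replicate 3, control replicate 2 or control replicate 4 (981, 870 and 1045 at an unadjusted p below 0.05), 8 without mutant replicate 4 and 11 without control replicate 3. The number of tested keratins with a higher mean in mutants was 17, and 12 to 18 as each library was left out. Krt75 turned to -0.085 with edgeR, -0.089 with DESeq2 and -0.008 with the stabilised values. Leaving out 1 library moved the log2 differences from -0.100 to 0.288 for Krt19, from -0.187 to 0.217 for Krt6a, from -0.133 to 0.229 for Krt10, from -0.149 to 0.422 for Krt4, from -0.062 to 0.171 for Krt1 and from -0.255 to 0.370 for Krt75; the cause was not tested. Those of Krt5, Krt14, Krt15, Krt17, Krt7, Krt8, Krt18 and Krt80 stayed above 0 under every alternative, with the lowest value, 0.011, for Krt80 without mutant replicate 2. The log2 difference of the summed count was 0.230, and 0.063 to 0.364 as each library was left out, 0.262 with quantile normalisation and 0.233 with trimmed-mean scaling. The labels do not say what the first number of the titles marks, and libraries sharing it correlated in their deviations by -0.008 to 0.100 (Pearson, 4 pairs of a mutant and a control). Pairs that did not share it correlated by -0.085 to 0.076. Correlations this small in 4 pairs cannot decide whether the number marks libraries with a common origin. No other library shared the number of mutant replicate 1 or that of control replicate 1. With the number as a block, these libraries therefore add nothing to the log2 difference. With the number as a replicate block 6 genes and 0 keratins were called, and the log2 differences moved to 0.272 for Krt10 (0.018 without the block), 0.548 for Krt4 (0.210), 0.226 for Krt19 (0.055), 0.158 for Krt75 (0.004) and 0.147 for Krt1 (0.044). Values under about 20 counts, as for the hair keratins, are limited by depth, and intervals and floors cover counting error only.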
